A study of Sus scrofa with 32 samples.

Results

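The livers described here came from Pietrain pig fetuses whose mothers (gilts) ate a gestation diet enriched in methylating micronutrients, and they were collected at 91 or 63 days post coitum (dpc). The members are the 11 arrays that the labels give to this diet and to these ages, 5 at 91 dpc and 6 at 63 dpc, of 32 arrays in the series. The other arrays are livers of the same breed from gilts on a control diet at 91 dpc (5 arrays) and 63 dpc (6 arrays), and livers of both diets at 35 dpc (5 arrays each). Each array measured total RNA of 1 whole-liver sample on a porcine Affymetrix expression array. The nutrients added and their amounts are not given in the sources used here, nor are dam, litter, sex or array batch. Fetuses of 1 dam may therefore stand in the same group, and the p-values then measure only the spread between these samples.

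The fetal liver is a blood-forming organ before it takes over the metabolic work of the adult liver. Red cell, granulocyte and platelet precursors live there among hepatocytes, and blood formation later moves to the bone marrow. Hepatocytes meanwhile build up the plasma proteins, bile acid transport, cholesterol synthesis and detoxifying enzymes that the newborn needs, partly under glucocorticoid and thyroid hormone control. Methylating micronutrients such as folate, vitamin B12, choline, betaine and methionine feed the methionine cycle, which makes S-adenosylmethionine, the methyl donor for DNA and other molecules.

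The unit throughout is the log2 signal of a probe set, a group of short probes for 1 transcript. A difference is the mean at 91 dpc minus that at 63 dpc, with the standard error from limma, and rose, fell and called are used only where limma's p, adjusted by Benjamini and Hochberg's method across every probe set tested, was under 0.05. Each gene is given by its brightest named probe set. Fold changes set 1 probe set against itself between ages, since levels of different probe sets cannot be compared.

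Between 63 and 91 dpc, the methyl-diet livers lost signal from blood-forming cells and from the cell cycle. They gained signal for many secreted defence proteins, for cholesterol synthesis and for class II antigen presentation. GSTA1 (a glutathione S-transferase that detoxifies reactive compounds) and KLF9 (a transcription factor induced by glucocorticoid and thyroid hormone) had the largest rises. SLC2A1 (the glucose transporter GLUT1) and HBE1 (embryonic epsilon globin) had the largest falls. Of 15327 probe sets tested, 6691 (43.7%) differed between the ages, 3102 higher (20.2%) and 3589 lower (23.4%) at 91 dpc. A change of at least 1 log2 unit was reached by 1679 of those higher and by 1072 of those lower. At least 2 log2 units were reached by 264 of those higher and by 88 of those lower.

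Among the 5594 genes with a single symbol, counted by their brightest probe set, 14.7% rose and 33.8% fell, and the median difference was -0.17. These shares and this median are the background for every gene list below. The named genes lean towards falls more than the array as a whole: probe sets without a single symbol made up 65.5% of those higher and 34.1% of those lower. In 2035 probe sets all 5 arrays of 91 dpc lay above all 6 of 63 dpc, and in 2412 they lay below, together 29.0% of those tested.

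Some features of the arrays touch every count. EIF1AY, a Y-linked gene, read 2.64 on 91 dpc arrays 4 and 5 and 8.34 to 8.67 on the other 91 dpc arrays, against 7.61 to 8.17 on the arrays of 63 dpc. Without the arrays at background for this gene, 5810 probe sets were called, 2958 higher and 2852 lower. The labels name no batch. The gap of the hybridisation control bioC over bioB, cut at 1.2, split the arrays into sets that are called batches here. The high-gap batch held 3 arrays of 91 dpc and 3 of 63 dpc, and the low-gap batch 2 and 3. Whether they reflect how the livers were processed was not tested. With these batches as a block, 7160 probe sets were called. The high-gap arrays alone gave 5255 and the low-gap arrays alone 2249. The 24 leading genes described next kept their sign in both batches, and so did all 201 named genes that were called. Because these genes were selected on the same arrays, this is not an independent check.

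**Figure D1:**
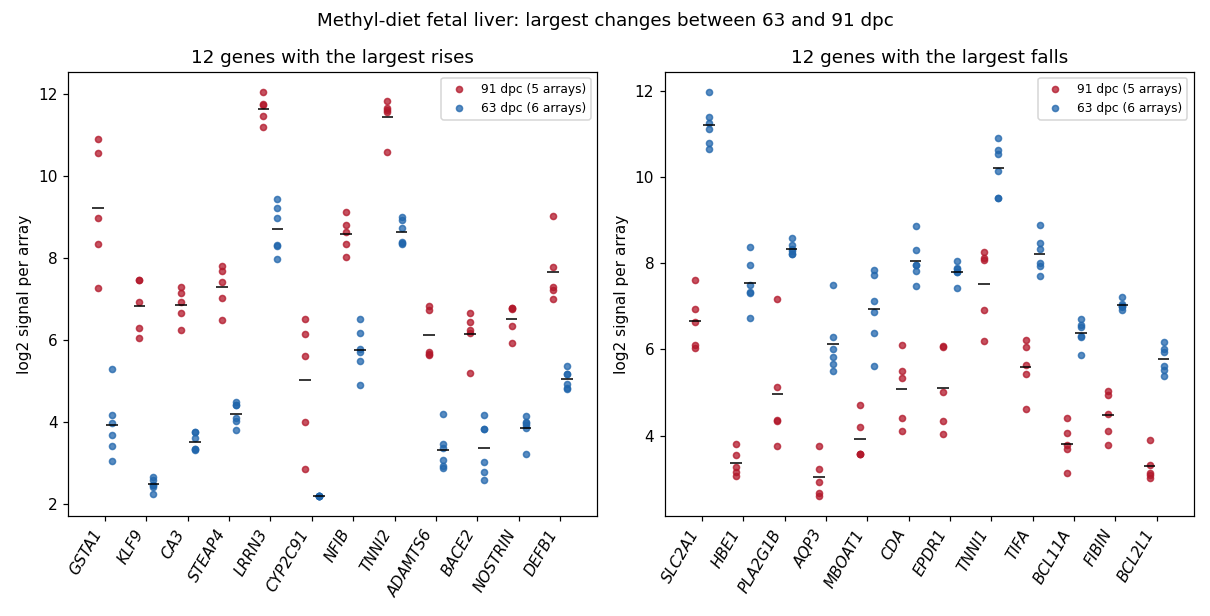
Log2 signal (vertical axis) of the 12 genes with the largest rises (left panel) and the 12 with the largest falls (right panel) in each methyl-diet array, with 91 dpc in red to the left of 63 dpc in blue; black bars are group means. In each of the 24 genes the 5 arrays of 91 dpc and the 6 of 63 dpc do not overlap, and GSTA1 and CYP2C91 spread widely at 91 dpc. The genes were picked by the size of this difference in these arrays.

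GSTA1 read 7.27, 10.91, 10.57, 8.98 and 8.34 on arrays 1 to 5 at 91 dpc, against 3.07 to 5.30 with a median of 3.84 at 63 dpc. Its difference was 5.27 ± 0.76 (adjusted p = 2.76e-06), a 38.7-fold change. All arrays of 91 dpc were higher, yet they spanned more than 3 log2 units among themselves, with arrays 2 and 3 at the top and array 1 at the bottom. KLF9 read 6.30, 7.47, 7.46, 6.04 and 6.94 at 91 dpc, against 2.26 to 2.67 with a median of 2.48 at 63 dpc. All 6 values at 63 dpc lay at or below the array's 40th percentile (2.74 to 2.86 on these arrays), which serves as background here, so the change is given as at least 17-fold (difference 4.36 ± 0.19, adjusted p = 1.13e-16).

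The 10 other leading rises were between 2.62 and 3.32. CA3, a carbonic anhydrase of liver and muscle, averaged 6.86 ± 0.41 at 91 dpc and 3.53 ± 0.21 at 63 dpc (SD, n = 5 and n = 6, as for all means below). STEAP4, a metal-reducing membrane protein, averaged 7.29 ± 0.54 at 91 dpc and 4.21 ± 0.27 at 63 dpc. CYP2C91, a cytochrome P450, read 4.0, 5.61, 6.51, 2.87 and 6.14 at 91 dpc and 2.201 on every array of 63 dpc, at least 4.84-fold higher. NFIB, a nuclear factor I transcription factor, rose by 2.82, and its relative NFIA rose by 1.80. LRRN3, a leucine-rich repeat membrane protein, rose by 2.93. ADAMTS6 and BACE2, both proteases, rose by 2.80 and 2.77. NOSTRIN, which binds endothelial nitric oxide synthase, rose by 2.66, and the antimicrobial peptide gene DEFB1 by 2.62.

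A pair of troponin I genes moved in opposite directions. TNNI2, the fast skeletal muscle form, read 10.59 to 11.83 at 91 dpc, against 8.34 to 9.01 at 63 dpc, and rose by 2.82 ± 0.29. TNNI1, the slow skeletal muscle form, read 6.19 to 8.26 at 91 dpc, against 9.50 to 10.90 at 63 dpc, and fell by 2.68. Of the 4 skeletal muscle markers looked at (CKM, MYL1, ACTA1 and TNNT3), CKM alone passed the filter on dim probe sets. It read 4.30 to 4.80 at 91 dpc and 4.13 to 4.87 at 63 dpc, and was not called. Outside that panel, the myosin heavy chain gene MYH7 also passed the filter. It averaged 3.94 at 91 dpc and 4.40 at 63 dpc and was not called (-0.45 ± 0.20, adjusted p = 0.0695). The part of muscle tissue in the troponin values was not tested.

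Among the falls, SLC2A1 read 6.02, 7.61, 6.93, 6.11 and 6.64 at 91 dpc, against 10.65 to 11.96 with a median of 11.18 at 63 dpc. It was 23.1-fold lower (-4.53 ± 0.28, adjusted p = 7.1e-13), and its groups lay more than 3 log2 units apart. HBE1 read 3.81, 3.07, 3.28, 3.17 and 3.55 at 91 dpc, against 6.74 to 8.38 with a median of 7.42 at 63 dpc, and was 17.9-fold lower (-4.16 ± 0.30, adjusted p = 1.57e-11). BCL11A, the transcription factor that in humans silences fetal globin, fell by 2.56, and BCL2L1, a survival protein of red cell precursors, fell by 2.48. AQP3, a channel for water and glycerol, fell by 3.09 and was at background on 2 of the 5 arrays of 91 dpc. CDA, which deaminates cytidine, fell by 2.96.

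PLA2G1B, a secreted phospholipase A2, read 7.17, 4.37, 4.34, 3.76 and 5.14 at 91 dpc, against 8.20 to 8.57 with a median of 8.31 at 63 dpc, and fell by 3.38. Array 1 held the highest value of the older group in this gene. MBOAT1, an acyltransferase of membrane phospholipids, fell by 2.99. EPDR1 (-2.69) and FIBIN (-2.55) fell, and TIFA, an adaptor in innate immune signalling, fell by 2.63.

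Genes of blood formation were lower at 91 dpc in every lineage list. Of 10 measured heme synthesis genes, 9 fell and 0 rose, with a median of -1.68. UROD (-1.91) and ALAD (-1.62), enzymes of that pathway, fell, and FECH, which inserts the iron, fell by 1.21. SLC25A38, the mitochondrial glycine carrier that heme synthesis needs, fell by 1.98. Of 9 erythroid markers, 6 fell and 0 rose (median -1.91). EPOR, the erythropoietin receptor, averaged 6.93 ± 0.53 at 91 dpc and 9.39 ± 0.24 at 63 dpc, and fell by 2.46.

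Globin genes did not move as one. In a list of 6 globins and globin regulators, 4 fell and 0 rose. HBE1 fell as above, HBM (mu globin) fell by 1.58, and KLF1, the erythroid master regulator, fell by 2.16. HBB, the beta globin gene, read 8.50, 8.0, 8.56, 7.94 and 8.16 at 91 dpc, against 6.92 to 8.37 with a median of 7.99 at 63 dpc. Its groups overlapped and its difference of 0.40 ± 0.35 did not pass the test (adjusted p = 0.376). AHSP, which stabilises free alpha globin, read 12.03 to 13.58 at 91 dpc, against 13.81 to 14.04 at 63 dpc, and fell by 1.12.

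Granulocyte and platelet precursors showed the same direction. Of 10 neutrophil and granulocyte genes, 9 fell and 0 rose (median -1.46). PRTN3 (-2.37) and ELANE (-2.18), proteases of neutrophil granules, fell. S100A8, a calcium-binding protein of neutrophils, fell by 1.96, and its groups overlapped because array 5 of 91 dpc read 7.12. In the list of blood stem cell and megakaryocyte markers, 6 of 10 fell and 1 rose. ITGA2B (-1.72) and ITGB3 (-1.19), the subunits of the platelet fibrinogen receptor, fell, SELP (P-selectin) fell by 1.63, and PPBP, a platelet chemokine, fell by 1.32. In a whole-liver sample, fewer cells of a type and less RNA per cell cannot be told apart.

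The cell cycle list had 28 of 36 genes lower and 0 higher, with a median of -1.39. UBE2C, a ubiquitin-conjugating enzyme of mitotic exit, averaged 8.74 ± 0.41 at 91 dpc and 10.83 ± 0.14 at 63 dpc. ORC1 (-2.15), of the complex that binds replication origins, and MCM2 (-1.92), a subunit of the helicase loaded there, fell. AURKA, a mitotic kinase, fell by 1.72, and CKS1B, a partner of cyclin-dependent kinases, fell by 1.44. Cell cycle inhibitors were mixed, with 3 of 14 higher and 4 lower, both near the background shares. RBL2, a pocket protein of quiescent cells, rose by 1.06, whereas CDKN2C (-1.85) and GADD45A (-1.04) fell.

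The livers of 91 dpc differed among themselves in these lists far more than those of 63 dpc. The mean over the erythroid list was 9.16, 8.08, 8.20, 9.02 and 8.98 on arrays 1 to 5 at 91 dpc, against 10.08 to 10.41 at 63 dpc, with an SD of 0.51 at 91 dpc and 0.12 at 63 dpc. For the cell cycle list it was 7.84, 7.03, 7.14, 7.55 and 7.64 at 91 dpc, against 8.56 to 8.69 at 63 dpc (SD 0.34 at 91 dpc and 0.045 at 63 dpc). Arrays 2 and 3 were the lowest in both lists and in heme synthesis. The same arrays were the highest in drug and xenobiotic metabolism, whose list mean was 8.26, 8.83, 8.62, 8.19 and 8.37 at 91 dpc, against 7.90 to 8.09 at 63 dpc, and in GSTA1. Array 1 was the highest of the older group in the erythroid, heme and cell cycle means and the lowest in GSTA1. With 5 arrays, no relation between these measures was tested, and their mutual dependence on cell makeup was not tested.

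**Figure D2:**
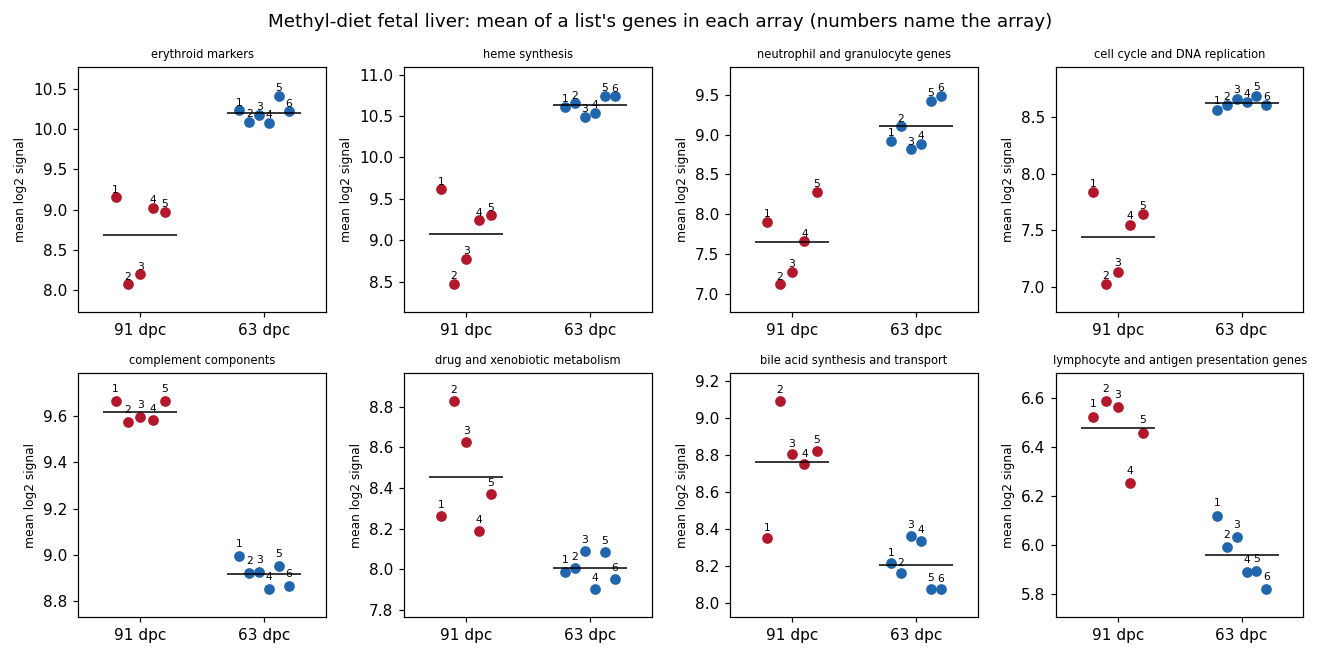
Mean log2 signal over the measured genes of 8 lists (vertical axes, each with its own range) in every methyl-diet array, 91 dpc in red on the left and 63 dpc in blue on the right; digits name the array within its age and black bars are group means. At 91 dpc, arrays 2 and 3 are lowest for erythroid, heme, neutrophil and cell cycle genes and highest for drug and xenobiotic metabolism.

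Many genes of secreted defence and clotting proteins were higher. Of 22 complement genes, 12 rose and 1 fell, with a median of 0.71. C5, which starts the lytic complex, read 12.04, 11.66, 11.59, 11.76 and 11.94 at 91 dpc, against 9.12 to 10.01 with a median of 9.69 at 63 dpc. It was 4.47-fold higher (2.16 ± 0.34, adjusted p = 9e-06) with no overlap. C8B and C8A, later parts of that complex, rose by 2.40 and 1.85, C9, which forms its pore, by 1.41, and C4BPB, a subunit of an inhibitor of complement, by 1.59. CLU (clusterin), also an inhibitor, fell by 0.47.

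Of 13 coagulation factors, 8 rose and 0 fell. F9 averaged 12.92 ± 0.06 at 91 dpc and 11.36 ± 0.29 at 63 dpc, and KLKB1 (plasma prekallikrein) averaged 10.86 ± 0.25 at 91 dpc and 9.21 ± 0.14 at 63 dpc. PROS1, an anticoagulant cofactor, rose by 0.91, and the fibrinogen chains FGG and FGB by 0.45 and 0.50. Without the arrays at background for EIF1AY, 5 of the 13 were called, and FGG was not among them. The acute phase and innate list had 7 of 10 higher and 1 lower, with the highest median of the 41 lists, 1.84. LEAP2, a liver antimicrobial peptide and ghrelin receptor antagonist, averaged 9.08 ± 0.57 at 91 dpc and 6.89 ± 0.41 at 63 dpc, and FGL1, a hepatocyte-secreted fibrinogen-like protein, rose by 1.61. CD14, a receptor for bacterial lipopolysaccharide, rose by 2.22. SAA2, a serum amyloid A, went the other way and fell by 1.37.

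Albumin and the carrier proteins were already near the top of the signal range and shifted little. Of 24, 6 rose and 4 fell, with a median of 0.01; 7 fell with array weights. ALB read 15.34, 15.37, 15.25, 15.47 and 15.40 at 91 dpc, against 14.58 to 15.04 with a median of 14.72 at 63 dpc. Every array of 91 dpc was higher, but the difference of 0.61 ± 0.27 missed the threshold (adjusted p = 0.0648) and passed it under some alternatives, quantile normalization and array weights among them. AFP, the fetal counterpart of albumin, did not pass the test (-0.04 ± 0.07), with 15.73 to 15.91 at 91 dpc and 15.79 to 15.99 at 63 dpc. SERPINA7, the thyroxine carrier, rose by 1.01, whereas SERPINA6, the cortisol carrier, fell by 1.45 and RBP4, the retinol carrier, fell by 0.35.

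Cholesterol synthesis genes were mostly higher. Of 15 cholesterol synthesis genes, 9 rose and 1 fell (median 0.73). CYP51 (lanosterol demethylase) read 12.88 to 13.12 at 91 dpc, against 11.45 to 11.89 at 63 dpc, and rose by 1.30. MSMO1 and HSD17B7, further enzymes of the pathway, rose by 1.21 and 1.08, HMGCS1, at its start, by 1.03, and INSIG1, its feedback regulator, by 0.73. ABCB11, the bile salt export pump, read 9.26, 9.07, 8.75, 9.49 and 9.68 at 91 dpc, against 6.43 to 7.36 with a median of 7.04 at 63 dpc. It was 4.73-fold higher with no overlap, in a list of 8 bile acid genes of which 2 rose and 1 fell (4 and 1 after quantile normalization). CYP27A1, a bile acid synthesis enzyme, fell by 0.42. SLC10A1, the bile salt uptake carrier, did not pass the test (0.70 ± 0.31, adjusted p = 0.0646).

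In lipid handling, APOB rose by 1.32 and ABCA1, which exports cholesterol to form HDL, by 1.57, while 4 of 18 apolipoprotein and lipoprotein genes rose and 3 fell. Fatty acid oxidation had 9 of 27 higher and 7 lower, the share higher above the background and the share lower below it. Its median of -0.15 was near the background, and it was 0.004 in the high-gap and 0.08 in the low-gap arrays alone. PPARGC1A, a coactivator of mitochondrial and fasting genes, rose by 1.94 ± 0.24, and FABP1, the liver fatty acid binding protein, by 1.07. SLC25A20, the acylcarnitine carrier, fell by 0.81 and ACADS fell by 0.68. Fatty acid and triglyceride synthesis had 7 of 18 lower, near the background share, and 1 higher. FASN fell by 0.74 and LPIN2 fell by 1.29, whereas the elongase ELOVL6 rose by 1.06. Without the arrays at background for EIF1AY, 4 of the 18 were lower, without FASN.

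Glycolysis genes were mostly lower. Of 22 glycolysis and hexose transport genes, 14 fell and 0 rose. Besides SLC2A1, the neuronal-type glucose transporter SLC2A3 fell by 1.78, HK1 fell by 1.11 and PFKM fell by 1.36. HK1 is the hexokinase of red cells among other tissues, and the erythroid markers fell in the same arrays; their part in this result was not tested. Gluconeogenesis and glycogen genes had 3 of 17 higher, near the background share, and 2 lower (5 and 3 in a fit of the 11 methyl-diet arrays alone). PCK1, a rate-controlling enzyme of glucose formation, read 8.50, 8.36, 7.96, 8.69 and 9.17 at 91 dpc, against 8.21 to 9.42 with a median of 8.75 at 63 dpc. Its groups overlapped and it did not pass the test (-0.21 ± 0.32). UGP2, which makes the glycogen precursor, rose by 1.01.

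Urea cycle genes fell in 8 of 13 cases and rose in 1. The riser was CPS1, the entry enzyme of the cycle, with 12.84, 12.61, 12.75, 12.63 and 12.80 at 91 dpc, against 11.11 to 12.09 with a median of 11.53 at 63 dpc (1.10 ± 0.19, adjusted p = 2.31e-05). ARG1, which releases urea, fell by 0.58, OAT fell by 1.40 and the ammonia channel RHBG fell by 1.40. CPS1, ARG1, OAT and RHBG did not overlap between the ages. In amino acid breakdown, 7 of 22 fell and 4 rose, both near the background shares. CDO1, which oxidises cysteine, fell by 1.53, and the glycine cleavage enzyme AMT fell by 1.40, whereas KYNU of the tryptophan pathway rose by 1.26.

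Mitochondrial and antioxidant genes were mostly lower. Of 59 oxidative phosphorylation genes, 38 fell and 1 rose (median -0.42). NDUFA7 (-1.04) and NDUFS3 (-0.98), subunits of complex I, fell, and UQCR10 of complex III fell by 1.03. Of 31 antioxidant genes, 17 fell and 0 rose. PRDX2, an abundant red cell peroxiredoxin, fell by 1.45, GPX1 fell by 1.10, GPX4 fell by 0.87 and TXN fell by 0.77. Ribosomal protein genes had a median of -0.08, with 20 of 58 lower, near the background share, and 2 higher. This count was 9 lower without the intensity trend in the variance and 11 lower without the arrays at background for EIF1AY.

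**Figure D3:**
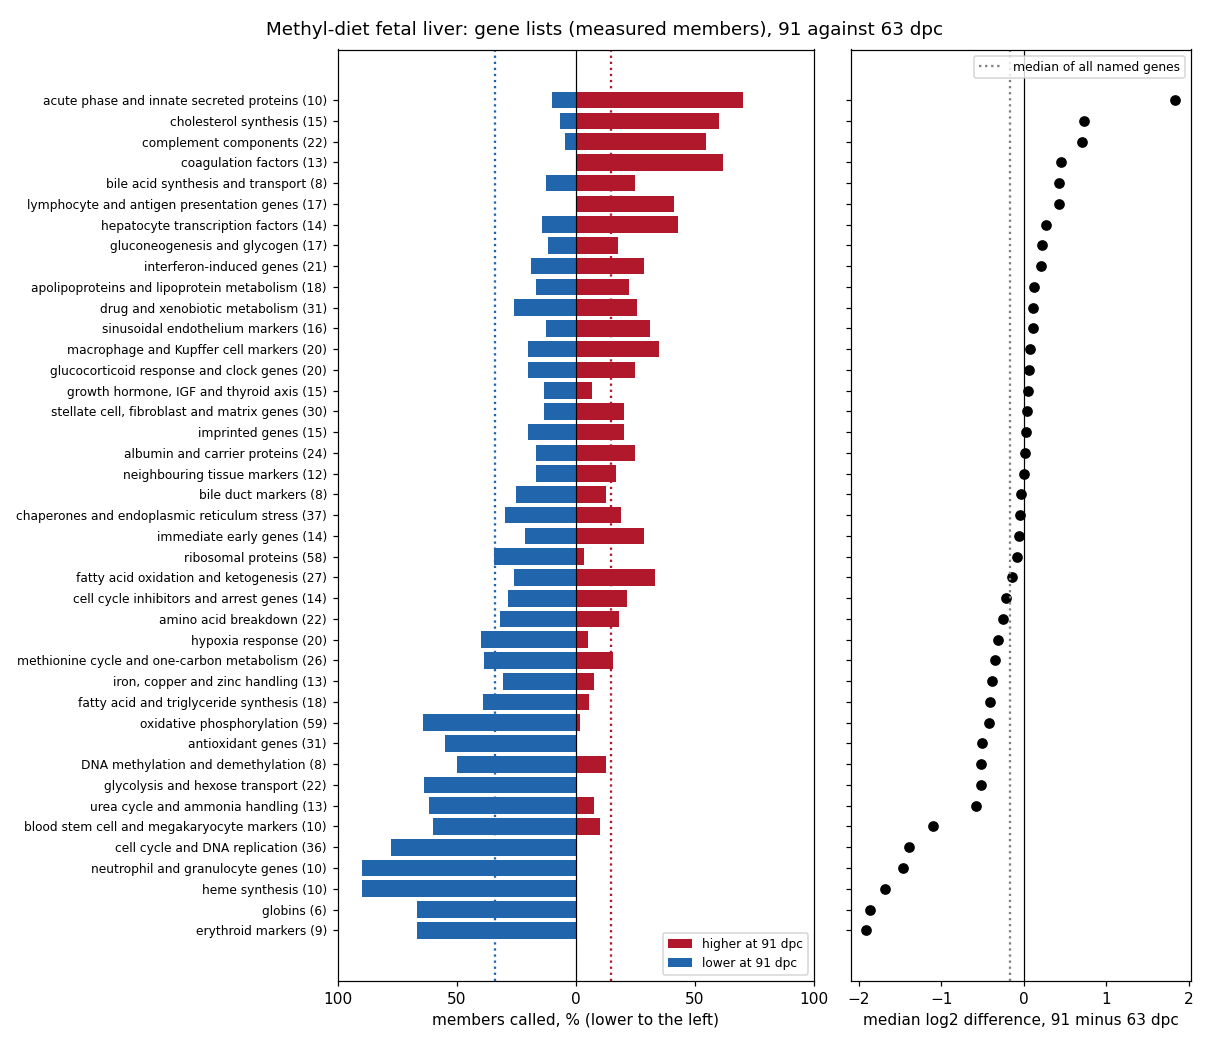
Share of measured members higher (red, to the right) and lower (blue, to the left) at 91 dpc in each of 41 gene lists, with the number of measured genes in brackets, and on the right the median log2 difference, 91 minus 63 dpc. Dotted lines give the shares (14.7% higher and 33.8% lower) and the median (-0.17) over all 5594 named genes. Defence proteins and cholesterol synthesis stand at the top and blood formation and the cell cycle at the bottom.

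The methionine cycle and one-carbon genes, the route by which the dietary methyl donors are used, were lower in 10 of 26 cases and higher in 4, with a median of -0.35; the share lower was near the background. MAT1A, which makes S-adenosylmethionine in liver, read 11.24, 11.39, 11.40, 11.28 and 11.33 at 91 dpc, against 11.79 to 12.10 with a median of 11.97 at 63 dpc. It fell by 0.64 (adjusted p = 2.25e-05) with no overlap. MAT2A, the form of growing and extrahepatic cells, rose by 0.78 ± 0.15, with means of 11.03 ± 0.33 at 91 dpc and 10.25 ± 0.16 at 63 dpc. AHCY, which removes S-adenosylhomocysteine, read 9.34, 10.06, 9.95, 9.66 and 9.81 at 91 dpc, against 10.50 to 10.98 with a median of 10.65 at 63 dpc, and fell by 0.91.

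On the folate side, TYMS, which makes thymidylate for DNA replication, fell by 1.66, and MTHFD1L, a mitochondrial formate-producing enzyme, fell by 1.26, with overlapping groups. BHMT, which remethylates homocysteine with betaine, read 9.81, 11.79, 10.30, 11.46 and 10.91 at 91 dpc, against 10.67 to 11.86 with a median of 11.26 at 63 dpc, and did not pass the test (-0.41 ± 0.31). GNMT, a buffer of S-adenosylmethionine in adult liver, was dim at both ages (3.21 ± 0.41 at 91 dpc and 3.23 ± 0.34 at 63 dpc) and did not pass the test. Of the members outside the naming rule, chosen after their values were seen, PEMT (-0.42) and GAMT (-0.48), both large users of methyl groups, fell, and CHDH, which turns choline into betaine, rose by 0.64. Without the arrays at background for EIF1AY, 4 of the 26 genes were lower and 3 higher, and MTHFD1L did not pass.

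Of 8 DNA methylation genes, 4 fell and 1 rose. DNMT1, the maintenance methyltransferase, averaged 10.21 ± 0.29 at 91 dpc and 10.89 ± 0.31 at 63 dpc and fell by 0.68. The de novo enzymes DNMT3A (0.23 ± 0.25) and DNMT3B (-0.37 ± 0.33) did not pass the test. MBD2, a reader of methylated DNA, fell by 0.79, and ZBTB33, also a reader, rose by 1.43. Among 15 genes imprinted in mammals, 3 rose and 3 fell. PLAGL1, a zinc finger regulator of an imprinted gene network in mice, fell by 1.72, DIRAS3 fell by 1.74 and GRB10, an adaptor of insulin receptor signalling, fell by 0.74, whereas PEG3 rose by 1.17 and DCN by 1.36. IGF2, the main fetal growth factor of liver, read between 14.36 and 14.84 over all 11 arrays in its brightest probe set, and its difference of 0.03 ± 0.10 did not pass the test. Of its 9 probe sets, 1 fell, with means of 7.98 at 91 dpc and 9.09 at 63 dpc (-1.11 ± 0.18, adjusted p = 1.21e-05), and 8 were not called.

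Hormone-linked genes did not move as a block. In the glucocorticoid and clock list, 5 of 20 rose and 4 fell. Besides KLF9, HSD11B1, which regenerates active cortisol, rose by 0.66, SGK1 by 0.62 and the clock gene ARNTL by 0.62. FKBP4, a co-chaperone of steroid receptors, fell by 0.83 and DUSP1 fell by 0.73. In the growth hormone, IGF and thyroid list, STAT5A (-1.60) and STAT5B (-1.30), which carry growth hormone and cytokine signals, fell, and the thyroid hormone activating enzyme DIO1 rose by 0.99 with overlapping groups; no other gene of the 15 passed. Of 14 hepatocyte transcription factors, 6 rose and 2 fell. NR5A2, a regulator of bile acid and lipid genes, rose by 1.19, and NR1I2 (the pregnane X receptor), at background on all 63 dpc arrays, was at least 1.88-fold higher.

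Drug and xenobiotic metabolism had 8 of 31 higher and 8 lower and its largest rise in GSTA1. The share higher was above the background and the share lower below it. The list median was 0.11, and -0.01 in the high-gap arrays alone. Without the arrays at background for EIF1AY, 5 of the 31 were lower. SULT2A1, a steroid and bile acid sulfotransferase, read 4.28, 5.38, 5.73, 3.84 and 5.17 at 91 dpc and was at background on all 63 dpc arrays, at least 4.37-fold higher. MGST3 (-1.38) and GSTO1 (-0.64) fell. Among genes of metal handling, FTH1 (ferritin heavy chain) fell by 0.45 and TF (transferrin) fell by 0.21. HAMP, the iron hormone hepcidin, read 10.44, 12.42, 12.50, 11.15 and 11.18 at 91 dpc, against 11.59 to 12.40 with a median of 12.21 at 63 dpc, and did not pass the test (-0.52 ± 0.26). The older livers spread over more than 2 log2 units in HAMP, with arrays 2 and 3 again at the top.

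Resident macrophage and endothelial genes changed selectively. Of 20 macrophage and Kupffer cell genes, 7 rose and 4 fell. CD5L, secreted by tissue macrophages, read 9.97, 10.53, 10.59, 10.29 and 10.49 at 91 dpc, against 7.70 to 8.41 with a median of 8.21 at 63 dpc, a 4.62-fold difference with no overlap. CD163, the hemoglobin scavenger receptor, rose by 1.76 and MRC1, the mannose receptor, by 1.86. Of the 4 Kupffer cell markers that passed the filter, CD163 and CD5L rose, and MARCO and VSIG4 were not called. The median of the macrophage list was 0.08. Of 17 lymphocyte and antigen presentation genes, 7 rose and 0 fell. In the low-gap arrays alone, 1 of the 17 rose. B2M, the light chain of class I molecules, had probe sets called in both directions, as given below. Its probe set at 15.82 at 91 dpc and 16.00 at 63 dpc was lower. The class II genes SLA-DRA, SLA-DQA1, SLA-DQB1 and SLA-DRB1 rose by 2.03, 1.56, 1.38 and 0.95, and CD74, their invariant chain, by 1.40. No defining lymphocyte marker looked at (CD3E, CD3D, CD79A, CD79B, MS4A1 and CD2) was measured here above the filter. How many of these have a named probe set was not counted.

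Among 16 sinusoidal endothelium genes, 5 rose and 2 fell. FCGR2B, the inhibitory antibody receptor of sinusoidal endothelium and B cells, read 7.87, 9.41, 8.84, 8.27 and 8.03 at 91 dpc, against 4.46 to 6.99 with a median of 6.00 at 63 dpc, a 6.11-fold difference. TEK, the angiopoietin receptor, rose by 1.07 and the endothelial transcription factor ERG by 1.34, and VWF fell by 1.51. In the matrix list, 6 of 30 rose and 4 fell. POSTN (periostin) averaged 10.69 ± 0.23 at 91 dpc and 8.56 ± 0.30 at 63 dpc, and FBN1 (fibrillin 1) rose by 1.18. EPCAM, a marker of bile duct and progenitor epithelium, rose by 1.14, whereas KRT19 (0.36 ± 0.42) did not pass the test. As to the labelled tissue, all 7 hepatocyte markers passed the filter, with array means of 15.57 to 15.71 at 91 dpc and 15.50 to 15.60 at 63 dpc. None of the few markers looked at for adrenal (3), kidney (2), pancreas (4) and gut (2) did. How many of these have a named probe set on the array was not counted. In a broader list of 38 markers of neighbouring tissues, however, 12 passed, of which 2 rose and 2 fell. Its array means were 6.06 to 6.36 at 91 dpc, against 6.41 to 6.86 at 63 dpc. The part of neighbouring tissue in these samples was not tested.

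Setting the methyl diet beside the control diet asks whether the age change depended on the mother's feed. Under the control diet, 6892 of 15327 probe sets (45.0%) differed between 91 and 63 dpc, 3838 higher (25.0%) and 3054 lower (19.9%). Of the calls, 46.4% were higher under the methyl diet and 55.7% under the control diet, but after quantile normalization these shares were 45.9% and 47.0%. The difference between diets in the 63 to 91 dpc change (methyl minus control) was called for 0 of 15327 probe sets (0%) by limma. At an unadjusted p under 0.05 there were 753 probe sets, 4.91% of all, and the smallest adjusted p was 0.0819. The median standard error of this difference was 0.29, against 0.21 for the age difference itself.

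The diets share no arrays, and their values are set side by side. The control-diet difference was 5.69 for GSTA1, -4.0 for HBE1 and -3.14 for SLC2A1. Control-diet GSTA1 read 10.52, 10.96, 10.38, 4.90 and 6.61 at 91 dpc. At 63 dpc it read 2.201 to 4.64, with some values below background, so the size of its difference is not exact. KLF9 read 7.03 to 7.78 in control-diet livers of 91 dpc and was below background (2.201 to 2.57) in all of 63 dpc, so its change has only a lower bound under both diets. Of GSTA1, HBE1 and SLC2A1, SLC2A1 was the farthest from its methyl-diet value, with a diet difference of -1.39 ± 0.40 (unadjusted p = 0.00152, adjusted p = 0.684). The erythroid and cell cycle lists had medians of -1.91 and -1.39 under the methyl diet and -1.75 and -1.55 under the control diet.

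TAT (tyrosine aminotransferase, an enzyme of tyrosine breakdown and a classic glucocorticoid target) had the smallest p for the diet difference among genes taken by their brightest probe set. It read 11.37, 12.69, 12.31, 11.44 and 12.29 in methyl-diet livers of 91 dpc, against 11.59 to 12.56 with a median of 11.99 in those of 63 dpc, so the ages overlapped (0.01 ± 0.22). In control-diet livers it read 12.96, 12.80, 12.98, 12.36 and 12.44 at 91 dpc, against 11.75, 11.56, 11.51, 10.95, 10.95 and 11.33 at 63 dpc, with every older liver higher (1.37 ± 0.22, adjusted p = 8.54e-06). The diet difference of -1.36 ± 0.30 had an unadjusted p of 0.000102 and did not pass the test (adjusted p = 0.312).

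Other genes of this group had the same sign. ARG2, the mitochondrial arginase, changed by -0.64 ± 0.37 under the methyl diet (not called) and by 1.40 ± 0.37 under the control diet, and PCK2, the mitochondrial form of PCK1, by -0.47 ± 0.21 (not called) and 0.64 ± 0.21. The other probe sets of PCK2 were dimmer and fell under the methyl diet (-1.003 ± 0.29 and -1.36 ± 0.36). MKNK1, a kinase that phosphorylates a translation initiation factor, changed by 0.54 ± 0.16 and 1.49 ± 0.16. MOCS3, AOAH and TMEM98 were lower at 91 dpc under the methyl diet (-0.88, -0.95 and -0.92) and changed by 0.01, -0.03 and -0.32 under the control diet. SPARCL1 was at background on 4 of 5 arrays of 91 dpc and on all 6 of 63 dpc. All 8 diet differences were negative and none passed the test (adjusted p = 0.312 for TAT, 0.39 for MKNK1 and 0.677 for ARG2). These 8 were picked by their p for this difference, from brightest probe sets only. Over all probe sets, the smallest p went with both signs. Negative were DDX39B (-4.46), SATB1 (-0.99) and TAT (-1.36). The SATB1 probe set read 2.40 to 3.49 in control-diet livers of 91 dpc. It stood at 2.201, the lowest value of the table, on every control-diet array of 63 dpc. In methyl-diet livers of both ages it was at most 2.32, below background, so its size is not exact. Positive were probe sets without a symbol (2.65 and 2.57) and a dimmer one of CA3 (1.34). The median diet difference was -0.07 as deposited and 0.006 after quantile normalization.

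In the one-carbon list, 10 genes were lower under the methyl diet and 4 under the control diet, with medians of -0.35 and -0.07. Over all named genes, the medians were -0.17 under the methyl diet and -0.12 under the control diet. Without the arrays at background for EIF1AY, 4 of the 26 list genes were lower under the methyl diet. AHCY changed by -0.91 under the methyl diet and -0.25 under the control diet, with a diet difference of -0.66 ± 0.22 (unadjusted p = 0.00558). MAT1A changed by -0.64 and -0.20 in the same order, with a diet difference of -0.44 ± 0.15 (unadjusted p = 0.00728). For MTHFD1L the values were -1.26 and -0.08, with a diet difference of -1.19 ± 0.46 (unadjusted p = 0.0151). None of these 3 passed after adjustment over all probe sets, so these counts of genes lower do not show that the diets differ in this pathway.

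**Figure D4:**
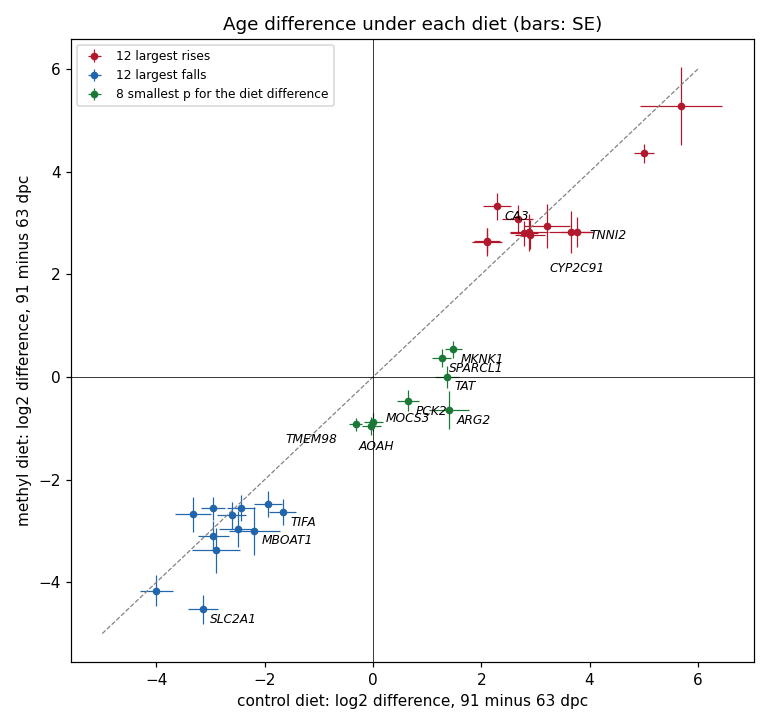
Log2 difference, 91 minus 63 dpc, under the methyl diet (vertical axis) against the control diet (horizontal axis) for the leading genes of the methyl diet and for the 8 named genes with the smallest p for the diet difference; bars are standard errors and the dashed line marks equality. The points of KLF9 and CYP2C91 rest on values at background at 63 dpc and give no exact size. The 24 leading genes were chosen on the vertical axis and the 8 green ones on the p for the diet difference; TAT and ARG2 sit at 1.37 and 1.40 on the horizontal axis.

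The earlier age places these changes on the course of gestation. HBE1 averaged 9.43 ± 0.57 at 35 dpc (SD, n = 5), 7.54 ± 0.57 at 63 dpc (n = 6) and 3.38 ± 0.30 at 91 dpc (n = 5), so it was lower at each successive age. SLC2A1 averaged 12.23 ± 0.45, 11.19 ± 0.47 and 6.66 ± 0.65 at the same ages, with most of the drop after 63 dpc. KLF9 averaged 2.35 ± 0.08 at 35 dpc and 2.48 ± 0.14 at 63 dpc, near background at both, and 6.84 ± 0.66 at 91 dpc. C5 averaged 7.37 ± 0.48, 9.64 ± 0.38 and 11.80 ± 0.19, and ALB 11.34 ± 0.44, 14.76 ± 0.16 and 15.37 ± 0.08, so most of the gain in ALB lay before 63 dpc. Granulocyte genes had their highest level at the middle age: ELANE averaged 7.49 ± 0.39, 8.40 ± 0.32 and 6.22 ± 0.38, and PGLYRP1, a peptidoglycan-binding protein of neutrophil granules, 5.64 ± 0.87, 7.23 ± 0.53 and 5.58 ± 0.60. EPO, the hormone that drives red cell formation, averaged 6.46 ± 0.39 at 35 dpc and was dim later, with 3.35 ± 0.25 at 63 dpc and 3.02 ± 0.71 at 91 dpc. These levels of 35 dpc are given as a description, with no test.

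**Figure D5:**
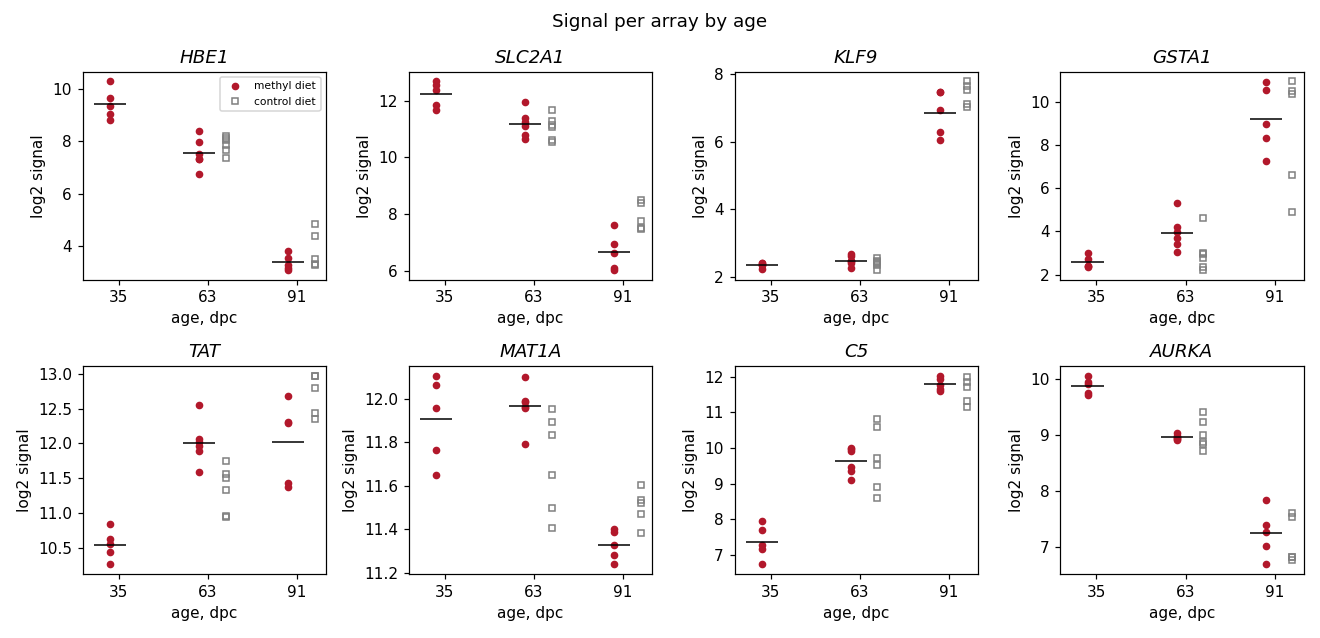
Log2 signal per array (vertical axes, each with its own range) at 35, 63 and 91 dpc for 8 genes; filled red circles are methyl-diet arrays with black bars at their means, and open grey squares are control-diet arrays at 63 and 91 dpc. KLF9 and GSTA1 are high at 91 dpc alone among these ages, HBE1, SLC2A1 and AURKA are lower at each later age, and TAT is higher at 91 than at 63 dpc in control-diet livers, while its methyl-diet livers overlap.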

How the data were processed

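The authors' deposited values are log2 signals, 1 per probe set and array, from 32 porcine arrays. The submitters' processing notes name GCOS 1.1.1; the normalization method is not given in the sources used here, and the values were used as deposited. Of 24123 probe sets, 124 controls were set aside, and 15327 were kept because they exceeded the array's 40th percentile in at least 5 arrays. The number of arrays limits the precision. Of 23999 probe sets, 10069 had 1 symbol in the array annotation, 198 several and 13732 none.

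limma 3.58.1 in R 4.3.3 fitted a mean for each group of age and diet over all 32 arrays, with an intensity trend in the variance, and contrasts for the age difference under each diet and their difference. Adjustment covered all probe sets of a contrast. The fit was tested on simulated data.

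The members, the lists and the rule for named genes were chosen with earlier results of these data known. The rule took the 12 largest rises, the 12 largest falls, the 5 smallest p in each list, the 8 smallest p for the diet difference and 30 further genes whatever their p. Other list members named were chosen after their values were seen. A fold written as "at least" sets the 91 dpc mean against the 40th percentile of the arrays of 63 dpc, or the probe set's own value where higher.

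Alternatives were no trend, robust spread, no filter, a 60th percentile filter, quantile normalization, array weights, fewer arrays in the fit, 1 probe set per gene, the batch of the hybridisation controls (gap of bioC over bioB), EIF1AY as a covariate, and leaving out each methyl-diet array of 63 and 91 dpc. Leaving out the arrays with EIF1AY at background was added after seeing the data.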

Additional observations from a re-analysis of the deposited data

Results flagged for a closer look

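Within each age, the highest and the lowest array were checked for a gap to the nearest array above the critical value of Dixon's test, in the 227 named genes and the 41 list means, 536 groups in all. The gap exceeded it in 29 groups, and chance alone gives about 1 in 20. Of the 29, 26 were in named genes and 3 in list means. The most fell on arrays 4 and 2 of 91 dpc, with 6 and 5.

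At 91 dpc, TNNI2 read 10.59 on array 1, against 11.56 to 11.83 on the others. MKNK1 read 7.88 on array 1, against 8.72 to 8.85 on the others. CLDN4 read 8.85 on array 2, against 7.91 to 8.08 on the others. SLC11A2 read 6.03 on array 4, against 6.76 to 6.998 on the others. MRC1 read 10.60 on array 5, against 10.17 to 10.29 on the others. FAH read 10.25 on array 3, against 10.37 to 10.39 on the others. ITGA2B read 5.69 on array 2, against 6.77 to 7.12 on the others. NFIA read 5.84 on array 2, against 6.68 to 6.83 on the others. PPARGC1A read 5.803 on array 1, against 6.54 to 6.80 on the others. MDH1 read 12.04 on array 2, against 11.27 to 11.45 on the others. CDKN2C read 6.59 on array 4, against 4.69 to 4.78 on the others. ZBTB33 read 8.41 on array 4, against 9.18 to 9.44 on the others. SLA-DQB1 read 6.07 on array 4, against 6.92 to 7.15 on the others. DNMT3B read 4.24 on array 4, against 2.78 to 2.86 on the others. IGF1 read 3.71 on array 4, against 3.21 to 3.32 on the others.

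At 63 dpc, NOSTRIN read 3.23 on array 6, against 3.87 to 4.14 on the others. SPARCL1 read 2.201 on array 5, against 2.26 to 2.27 on the others. CKS1B read 9.86 on array 1, against 10.06 to 10.15 on the others. SULT2A1 read 2.21 on array 2, against 2.50 on each of the others. SAA2 read 11.32 on array 3, against 11.46 to 11.52 on the others. CD5L read 7.70 on array 1, against 8.15 to 8.41 on the others. MYC read 9.63 on array 6, against 9.33 to 9.43 on the others. KLKB1 read 8.93 on array 6, against 9.24 to 9.28 on the others. EZH2 read 8.68 on array 2, against 7.97 to 8.21 on the others. LPIN2 read 6.08 on array 6, against 6.36 to 6.50 on the others. IGF1 read 3.71 on array 5, against 3.30 to 3.41 on the others. Values of SPARCL1 and SULT2A1 at 63 dpc lie at or near the lowest value of the table.

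Among list means, the antioxidant genes averaged 9.10 on array 2 of 91 dpc, against 8.87 to 8.93 on the others of that age. The imprinted genes averaged 7.81 on array 5 of 63 dpc, against 7.97 to 8.04, and the apolipoprotein list averaged 10.81 on array 2 of 63 dpc, against 10.95 to 11.02. The causes were not tested.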

How the results depend on the processing

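The main count of 6691 probe sets called between 91 and 63 dpc stayed within 1.5 times under no intensity trend, robust spread, no filter, the stricter filter, quantile normalization, array weights, the methyl-diet arrays alone, the batch block, the high-gap arrays alone, EIF1AY as a covariate and without the arrays at background for EIF1AY. It was 2804 with 1 probe set per gene (863 higher and 1941 lower), where fewer features were tested, and 2249 in the low-gap arrays alone (667 higher and 1582 lower), where fewer arrays were used. Leaving out each of the 11 methyl-diet arrays in turn gave 5891 to 6692. The diet difference was called for 0 probe sets in the main fit, 2 with array weights, 1 with the batch block, 1 with EIF1AY as a covariate, and 0 to 1 with each of these 11 arrays left out; no control-diet array was left out in turn. The 1 call was DDX39B without array 1 of 63 dpc, and a probe set with no symbol without array 2 of 91 dpc.

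All 24 leading genes kept their call under every alternative run, 576 values in all. They were selected for large differences on these same arrays, so this is not an independent check. Over all 227 named genes, 5269 values kept their call, 133 lost it, 32 gained one and 0 changed the sign of a called value. Of the 133, 59 were lost in the low-gap arrays alone and 20 in the high-gap arrays alone. Counts of list members moved by over 1.5 times in 26 lists in the low-gap arrays alone and in 10 in the high-gap arrays alone. No paired analysis was possible because the labels carry no replicate numbers that tie arrays across ages. Limits are the unknown normalization before deposit, unknown dams and sexes, batches known only from control probes, and signals near the lowest value, where differences are compressed.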

Other observations

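1 probe set of DDX39B (an RNA helicase of splicing and RNA export) had the smallest adjusted p for the diet difference, 0.0819, and was singled out after its values were seen. It read 2.78, 2.71, 3.95, 3.74 and 3.61 in methyl-diet livers of 91 dpc, against 5.14, 7.18, 7.23, 7.70, 7.16 and 7.60 in those of 63 dpc. The methyl-diet ages did not overlap (difference -3.64 ± 0.57). In control-diet livers it read 7.52, 5.77, 7.32, 5.75 and 7.17 at 91 dpc, against 7.48, 6.90, 4.37, 3.81, 5.67 and 7.09 at 63 dpc, and the ages overlapped. The diet difference was -4.46 ± 0.81. It passed the test with the batch as a block (adjusted p = 0.0277), with array weights (0.0352), with EIF1AY as a covariate (0.0350) and without array 1 of 63 dpc (0.0122). No other alternative fit of the diet difference called it. In the 22 arrays of 63 and 91 dpc alone, the smallest adjusted p of any probe set was 0.263. Without the arrays at background for EIF1AY it was 0.192.

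Several genes carried probe sets called in opposite directions, 18 of the 1520 genes with more than 1 probe set. B2M, the light chain of class I molecules, had 1 probe set higher (0.64) and 4 lower (-0.18, -0.52, -1.12 and -1.25) at 91 dpc. RPLP0, a ribosomal protein, had 1 probe set at 7.80 at 91 dpc and 7.08 at 63 dpc, higher, and another at 15.45 at 91 dpc and 15.60 at 63 dpc, lower. SRSF6, a splicing factor, had 2 probe sets higher (1.71 and 1.59) and 1 lower (-0.50). Which transcripts these probe sets read was not tested.

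AMY2, an amylase gene, read 14.14 to 14.94 at 91 dpc, against 13.03 to 14.18 at 63 dpc, and rose by 0.89 with overlapping groups. No pancreas marker looked at (INS, PRSS1, CPA1 and PNLIP) passed the filter. Whether these markers have a named probe set was not counted, and the part of pancreas tissue was not tested. In the chaperone list, HSP90B1, an endoplasmic reticulum chaperone, rose by 1.81, and HSPA2 fell by 1.67. MYC, a growth-promoting transcription factor, fell by 1.25, with 7.86 to 8.38 at 91 dpc and 9.33 to 9.63 at 63 dpc. Among interferon-induced genes, CXCL9 was at background on all arrays of 63 dpc and 1 of 91 dpc, and was at least 2.38-fold higher at 91 dpc, whereas USP18 fell by 1.11.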
